A study of Rattus norvegicus with 4 samples.

Results

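The BCL2 family cell death regulators were examined as a set of 10 genes chosen by symbol: Bcl2, Bcl2l1, Mcl1, Bax, Bak1, Bad, Bid, Bbc3, Bcl2l11 and Bnip3l. Of these, 8 matched a row among the 16290 genes of the deposited table and all 8 passed the filter on low values, while Mcl1 and Bbc3 matched no row by symbol and were not analysed here. RNA was sequenced from cardiomyocytes, the contracting muscle cells of the heart, which came from neonatal rats of postnatal day 3 and were given an adenovirus vector in culture, a viral carrier of genes. The vector encoded Pdk3 in 2 libraries (Pdk3 1 and Pdk3 2) and mock in 2 control libraries (Mock 1 and Mock 2), so that both groups carried adenovirus. Pdk3 encodes a pyruvate dehydrogenase kinase, which inhibits the enzyme complex that admits pyruvate to the citric acid cycle, and by its title the series concerns glycolysis in the proliferation of cardiomyocytes after injury. Whether the libraries of 1 group stem from different cultures or animals is not stated in the labels, and p-values thus reflect the differences among these 4 libraries alone, which may be technical.

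BCL2 family proteins control whether the outer mitochondrial membrane is opened during apoptosis. The effectors Bax and Bak form pores in that membrane, through which cytochrome c leaves to activate caspases on the apoptosome. Anti-apoptotic members such as Bcl-2, Bcl-xL and Mcl-1 bind and restrain the effectors, and the BH3-only proteins either occupy these guardians or activate the effectors directly. In cardiac muscle, cells that are rarely replaced, the balance among these proteins is known to bear on survival after ischemia, and Bnip3l (Nix) and Bnip3 are known as receptors that mark mitochondria for removal by autophagy.

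Per gene, the deposited values are read counts that the authors normalised between libraries, called normalised counts below. They summed to between 4448199 and 4476649 per library, a spread of 0.640%, and correspond to an estimated 4139585 to 4706980 reads in genes. Pdk3 itself had 1218 and 1177 normalised counts in the Pdk3 libraries and 396 and 411 in the mock libraries, a log2 fold change of 1.57 ± 0.03 (SE; limma gave an adjusted p = 1.47e-06). The values do not tell vector transcripts from those of the endogenous gene. Over all 12838 genes tested with limma at an adjusted p under 0.05, the Pdk3 libraries had 1496 genes higher and 1449 lower than the mock libraries, which makes 22.9% of the genes tested. With libraries scaled to the median ribosomal protein gene the split was 941 higher to 3615 lower. The factors of that scaling were 1.04 and 1.02 in the Pdk3 libraries and 0.977 and 0.962 in the mock libraries. At the median, the 67 ribosomal protein genes were thus themselves higher in the Pdk3 libraries. Within a pair, libraries differed by less than counting noise, with a chi-square of 0.575 per gene between the Pdk3 libraries and of 0.584 between the mock libraries, where counting noise alone gives 1. Adjusted p is therefore also given with each gene's p raised to the exact binomial p of its summed reads where that was larger, written below as floored at counting noise. With that floor 15.8% of the genes tested passed.

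The cells carried the transcripts of their label, with summed normalised counts over 9 measured cardiomyocyte markers of 20825 and 20524 in the Pdk3 libraries and of 20154 and 19982 in the mock libraries. Of these markers 4 rose and 1 fell. Transcripts used as markers of other cell types were present as well. Over 9 macrophage and leukocyte markers the summed counts were 1116 and 1083 in the Pdk3 libraries, against 1418 and 1328 in the mock libraries, and 5 of the 9 fell. Over 7 fibroblast markers the sums were 5416 and 5265 in the Pdk3 libraries and 5484 and 5416 in the mock libraries, with 1 marker lower, and over 5 endothelial markers they were 841 and 813 in the Pdk3 libraries and 833 and 907 in the mock libraries, with 1 lower. Over 5 smooth muscle markers the sums were 3292 and 3245 in the Pdk3 libraries and 2834 and 2873 in the mock libraries, with 3 higher. The 4 erythroid rows summed to 34 and 37 in the Pdk3 libraries and to 70 and 78 in the mock libraries, and both of those named Hba-a2, near-identical copies of an alpha globin gene, were lower. On none of these lists was a measured marker at 0 in all libraries. Which cells these marker transcripts came from was not tested, nor was the part of other cell types in the results below. In such bulk samples fewer cells of a type and less RNA per cell cannot be told apart.

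Among the 8 measured BCL2 family members, 2 fell in the Pdk3 libraries and 0 rose. The members that fell were the BH3-only gene Bcl2l11, by 21.0%, and the mitophagy receptor gene Bnip3l, by 14.2%. By limma 0 members were higher also at an unadjusted p under 0.05, and with the floor at counting noise again 2 were lower and 0 higher. A count of 2 in 8 is near the background of 22.9% over all genes tested and is no result about the family as a group. Of all genes tested 11.3% were lower, and 7.45% with the floor. The median log2 fold change of the 8 members was -0.07, against -0.01 over all genes tested, and the members ranged from -0.34 for Bcl2l11 to 0.02 for Bak1. For 3 members, Bcl2l11, Bnip3l and Bax, both Pdk3 libraries lay below both mock libraries, as was the case for 31.1% of all genes tested, and 61.0% had groups apart in either direction. Beside these falls, all 9 macrophage and leukocyte markers had log2 fold changes below 0, with a median of -0.31. The median was also below 0 over the tested endothelial (-0.29), fibroblast (-0.13) and erythroid (-1.37) markers. It was above 0 over the cardiomyocyte (0.09) and smooth muscle (0.22) markers. The part of these cell types in the members' values was not tested.

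**Figure D1:**
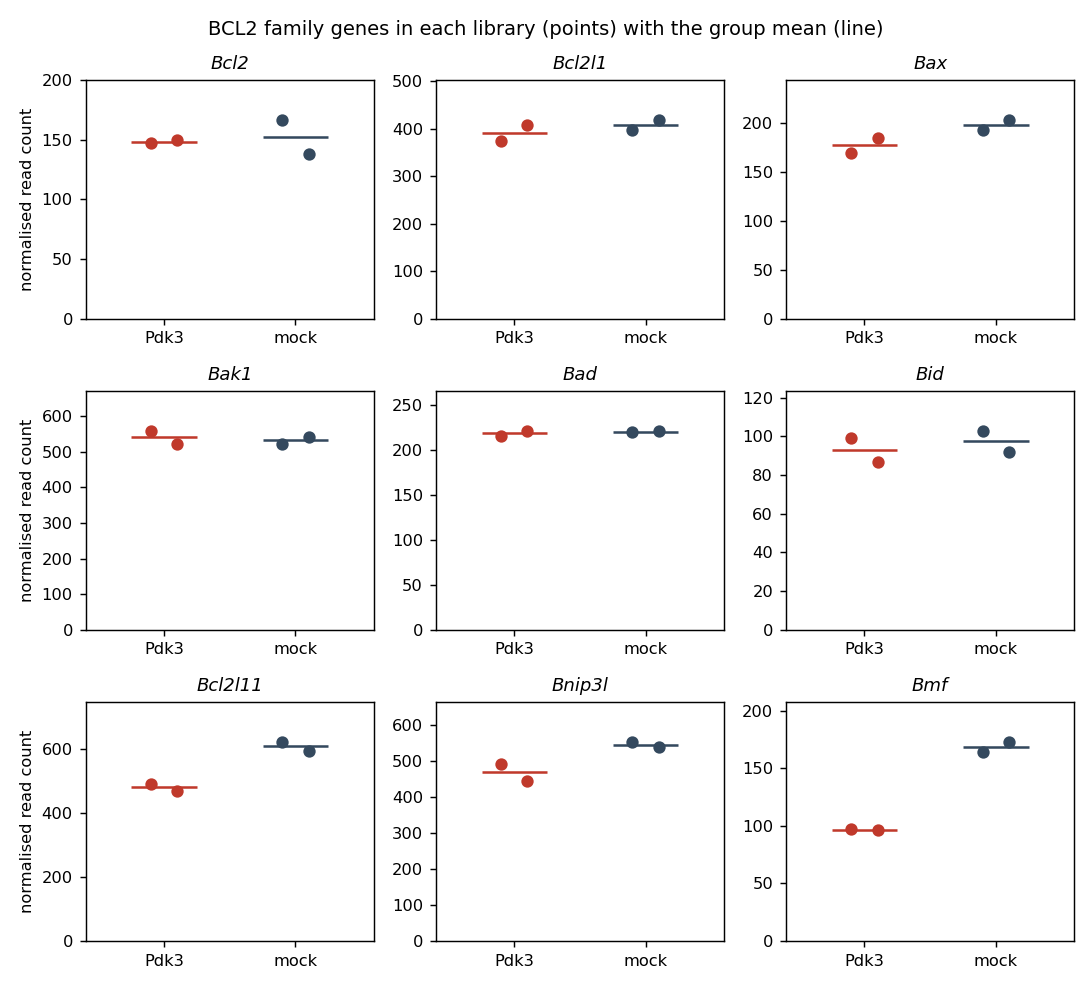
Normalised read counts (vertical axes, each from 0) of the 8 measured BCL2 family members and of Bmf, with the 2 Pdk3 libraries on the left and the 2 mock libraries on the right of each panel; points are libraries and lines are group means. The groups are apart for Bcl2l11, Bnip3l, Bax and Bmf, and overlap for Bcl2, Bcl2l1, Bak1, Bad and Bid.

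Of the anti-apoptotic members, neither measured gene passed the test. Bcl2 (ENSRNOG00000002791, chromosome 13, 26605426 to 26769374, minus strand, rn6), the founding member of the family, had 147 and 150 normalised counts in the Pdk3 libraries and 167 and 138 in the mock libraries. The Pdk3 libraries lay inside the range of the mock libraries, which differed from each other by more than the group means did. The log2 fold change was -0.03 ± 0.10 (SE, limma, adjusted p = 0.851). At this depth the 95% interval of the ratio of Pdk3 to mock reads was 0.827 to 1.15 (exact binomial, counting error only). The counts do not decide among ratios within that interval. No molecular identifiers are given and the handling of duplicates is not stated, so whether PCR copies were counted or removed is not known. The libraries of a pair differed by less than counting noise (chi-square of 0.575 and 0.584 per gene). The highest gene had 7809 to 8169 normalised counts per library. Whether removal of duplicates lowered the fold changes of high genes was not tested, and such intervals hold counting error only.

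Bcl2l1 (ENSRNOG00000007946, chromosome 3, 148259596 to 148313810, minus strand) encodes Bcl-xL, a guardian of the outer mitochondrial membrane. It had 373 and 407 normalised counts in the Pdk3 libraries and 396 and 419 in the mock libraries. The groups overlapped, and the log2 fold change was -0.06 ± 0.05 (SE, limma, adjusted p = 0.440), with a counting interval of the ratio of 0.867 to 1.06. The gene shares its span with LOC108353446 on the opposite strand, which had at most 12 normalised counts in any library. Since the strand setting of the counting is not given in the sources used here, reads of this pair cannot be told apart.

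The effectors gave no call either. Bax (ENSRNOG00000020876, chromosome 1, 101451802 to 101457207, minus strand), a pore former that moves to mitochondria when activated, had 170 and 185 normalised counts in the Pdk3 libraries and 193 and 204 in the mock libraries. Both Pdk3 libraries were below both mock libraries, by 10.6% in the mean. The log2 fold change of -0.16 ± 0.07 did not pass (SE, limma, adjusted p = 0.150, and 0.338 floored at counting noise), and the counting interval of the ratio was 0.771 to 1.03. With libraries scaled to the median ribosomal protein gene, Bax passed as lower (limma, adjusted p = 0.0217), and Bcl2l1 did so as well (limma, adjusted p = 0.0455). That scaling divides by genes that were higher in the Pdk3 libraries and puts the median of all genes at -0.09 in place of -0.01.

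Bak1 (ENSRNOG00000000485, chromosome 20, 5609625 to 5618260, minus strand), the effector that resides on the outer mitochondrial membrane, had 559 and 521 normalised counts in the Pdk3 libraries and 522 and 541 in the mock libraries. One Pdk3 library was the highest and the other the lowest of all 4. The log2 fold change was 0.02 ± 0.04 (SE, limma, adjusted p = 0.752), its sign turned under ribosomal protein scaling, and the counting interval of the ratio was 0.932 to 1.11. The ratio of Bax to Bcl2 counts, often used as a measure of the balance between death and survival signals, was 1.16 and 1.23 in the Pdk3 libraries and 1.16 and 1.48 in the mock libraries. These groups overlapped. The counts are not per length, so such a ratio compares libraries and says nothing of which gene had more transcripts.

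Among the 3 measured BH3-only members, Bcl2l11 fell, and Bad and Bid did not pass the test. Bcl2l11 (ENSRNOG00000016551, chromosome 3, 120726906 to 120764192, plus strand) encodes Bim, which binds all anti-apoptotic members and can activate Bax and Bak directly. It had 489 and 469 normalised counts in the Pdk3 libraries and 621 and 592 in the mock libraries. Both Pdk3 libraries were lower than either mock library, and the gap between the groups was larger than the difference within each pair. The mean was 479.0 ± 14.1 in Pdk3 libraries and 606.5 ± 20.5 in mock libraries (SD, n = 2 each), a log2 fold change of -0.34 ± 0.04 (SE, limma, adjusted p = 0.00108, and 0.00108 floored at counting noise). Its counting interval of the ratio was 0.724 to 0.861. Without an intensity trend in limma the call ended (adjusted p = 0.0528). With any 1 library left out the log2 fold change lay between -0.37 and -0.31. The ratio of Bcl2l11 to Bcl2l1 counts was 1.31 and 1.15 in the Pdk3 libraries and 1.57 and 1.41 in the mock libraries. These groups did not overlap, but the gap between them was smaller than the difference within either pair. Of single genes tested 61.0% had groups apart, and no such share was taken for ratios.

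Bad (ENSRNOG00000021147, chromosome 1, 222198534 to 222207453, plus strand), a BH3-only protein that 14-3-3 proteins hold in the cytosol when it is phosphorylated, had 215 and 221 normalised counts in the Pdk3 libraries and 219 and 221 in the mock libraries. The 4 libraries were nearly level, with a log2 fold change of -0.01 ± 0.06 (SE, limma, adjusted p = 0.891) and a counting interval of the ratio of 0.865 to 1.13. Bid (ENSRNOG00000012439, chromosome 4, 153442218 to 153465203, minus strand), which caspase-8 cleaves to link death receptors to mitochondria, had 99 and 87 normalised counts in the Pdk3 libraries and 103 and 92 in the mock libraries. The groups overlapped, and the log2 fold change was -0.07 ± 0.11 (SE, limma, adjusted p = 0.703). Bid had the fewest counts of the measured members and the widest counting interval of the ratio, 0.777 to 1.18.

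Bnip3l (ENSRNOG00000009820, chromosome 15, 43643897 to 43667029, minus strand) encodes Nix, an outer mitochondrial membrane protein that recruits the autophagy machinery and was first described by its similarity to BH3-only proteins. It had 490 and 444 normalised counts in the Pdk3 libraries and 552 and 537 in the mock libraries. The groups did not overlap, though the Pdk3 libraries differed from each other more than the mock libraries did. The mean was 467.0 ± 32.5 in Pdk3 libraries and 544.5 ± 10.6 in mock libraries (SD, n = 2 each), a log2 fold change of -0.22 ± 0.05 (SE, limma, adjusted p = 0.0184, and 0.0217 floored at counting noise). Its call ended without a filter on low values (limma, adjusted p = 0.107) and without an intensity trend (limma, adjusted p = 0.137). With any 1 library left out the log2 fold change of Bnip3l lay between -0.29 and -0.15, with the smallest change without Pdk3 2.

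Of 15 other family genes listed, 12 had a row and 10 were tested, of which 1, Bmf, fell and 0 rose, where 11.3% of all genes tested were lower and 22.9% were called in either direction. Bmf (ENSRNOG00000007529, chromosome 3, 110306067 to 110324084, minus strand) encodes a BH3-only protein that is held at the cytoskeleton by dynein light chain and released upon loss of cell attachment. It had 97 and 96 normalised counts in the Pdk3 libraries and 164 and 173 in the mock libraries. The Pdk3 libraries were nearly identical and far below the mock libraries, and the mean fell by 42.7%. The log2 fold change was -0.80 ± 0.08 (SE, limma, adjusted p = 0.000557, and 0.000557 floored at counting noise), with a counting interval of the ratio of 0.476 to 0.686, and only 1.21% of all genes tested had a log2 fold change this low or lower. Apart from settings that left out a library, Bmf passed under every alternative run, with adjusted p up to 0.0185 (limma without an intensity trend). With any 1 library left out its log2 fold change lay between -0.84 and -0.76.

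The other 9 tested family genes lay between -0.15 for Bcl2a1 and 0.24 for Bik on the log2 scale, and none passed. Those with the highest counts were Bcl2l2, which encodes the anti-apoptotic Bcl-w, with 654 and 662 normalised counts in the Pdk3 libraries and 642 and 692 in the mock libraries, and Bok, an effector-like member, with 469 and 478 in the Pdk3 libraries and 456 and 466 in the mock libraries. Their log2 fold changes were -0.02 for Bcl2l2 and 0.04 for Bok (limma, adjusted p = 0.776 and 0.489). Bnip3, the relative of Bnip3l, named after its values were seen, had 218 and 194 normalised counts in the Pdk3 libraries and 201 and 217 in the mock libraries. Its groups overlapped, with a log2 fold change of -0.02 ± 0.08 (SE, limma, adjusted p = 0.866). Whether Bnip3 and Bnip3l differed from each other in their response was not tested. Bcl2l14 and Bcl2l15 stayed below the filter, with at most 10 normalised counts in any library.

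**Figure D2:**
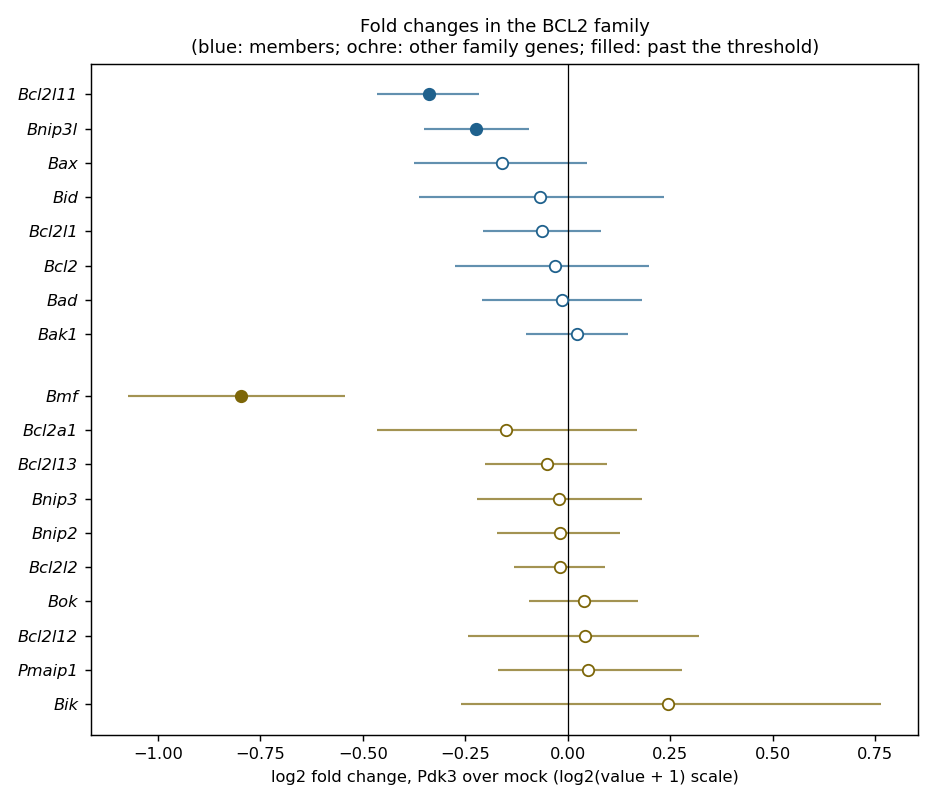
Log2 fold change of Pdk3 over mock (horizontal axis) for the 8 measured members (blue) and 10 other tested family genes (ochre), with lines for the 95% counting interval from the exact binomial test; filled points passed both limma and the floor at counting noise. Bmf, Bcl2l11 and Bnip3l are the filled points, at -0.80, -0.34 and -0.22, and the intervals of the other genes include 0.

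Promoter sequence was compared for Bcl2l11 and Bmf, the BH3-only genes that fell, and for Bad, a BH3-only gene whose groups overlapped. Forkhead factors of the FOXO group are known activators of Bcl2l11 in several cell types, and their core site GTAAACA was searched on both strands (TGTTTAC on the other) in the RefSeq windows of 250 bases before to 50 bases after each gene's start on build GRCr8, a later build than the rn6 coordinates above. The motif, chosen with the values known, is printed in capitals, 5′ to 3′ on the gene's strand.
Bcl2l11 (GRCr8, chr3:135819792-135820091, plus strand): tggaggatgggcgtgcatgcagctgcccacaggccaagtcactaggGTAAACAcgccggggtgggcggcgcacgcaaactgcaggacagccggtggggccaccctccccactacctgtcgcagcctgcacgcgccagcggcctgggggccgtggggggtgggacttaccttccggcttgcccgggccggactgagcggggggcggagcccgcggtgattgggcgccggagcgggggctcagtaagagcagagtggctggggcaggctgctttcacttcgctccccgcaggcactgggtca
Bmf (GRCr8, chr3:125974015-125974314, minus strand): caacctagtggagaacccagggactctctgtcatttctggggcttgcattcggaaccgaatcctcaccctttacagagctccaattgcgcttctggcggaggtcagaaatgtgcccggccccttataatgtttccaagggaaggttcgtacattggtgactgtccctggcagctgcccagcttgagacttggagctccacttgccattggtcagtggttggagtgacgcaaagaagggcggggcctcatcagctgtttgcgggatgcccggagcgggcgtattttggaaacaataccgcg
Bad (GRCr8, chr1:213562864-213563163, plus strand): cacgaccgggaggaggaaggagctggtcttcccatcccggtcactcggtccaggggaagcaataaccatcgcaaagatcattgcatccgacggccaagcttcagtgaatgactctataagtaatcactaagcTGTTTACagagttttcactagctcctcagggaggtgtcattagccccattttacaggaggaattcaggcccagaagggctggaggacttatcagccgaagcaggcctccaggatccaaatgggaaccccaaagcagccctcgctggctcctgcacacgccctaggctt
The Bcl2l11 window held 1 match, with its first base at position -204 from the start. The Bad window held 1 match too, on the other strand at position -118, and the Bmf window held 0. Of the 10 members 7 had a window, and 2 of these 7 held the motif, while 0 of 11 other family genes with a window did. Over all 33469 windows the share was 3.78%, which counts windows and not genes. Some genes had several windows, among them Bcl2l1 with 4. A match is a run of letters and does not show that a factor binds there.

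Among the genes on the list of direct regulators of BCL2 family proteins, 27 were tested, 4 rose and 4 fell, and 2 and 4 did so with the floor at counting noise. Over all genes tested 22.9% passed, and 15.8% with the floor. Of the forkhead genes, Foxo1 had 157 and 157 normalised counts in the Pdk3 libraries and 195 and 204 in the mock libraries, a log2 fold change of -0.34 ± 0.07 (SE, limma, adjusted p = 0.00955). Foxo3 had 360 and 356 in the Pdk3 libraries and 443 and 400 in the mock libraries, a log2 fold change of -0.23 ± 0.05 (SE, limma, adjusted p = 0.0202). For both genes the Pdk3 libraries lay below the mock libraries, as was the case for 31.1% of all genes tested. For Foxo3 the mock libraries differed from each other by slightly more than the gap between the groups.

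Ddit3, which encodes the stress factor CHOP, a known activator of Bcl2l11, had 167 and 182 normalised counts in the Pdk3 libraries and 211 and 221 in the mock libraries. It fell by 0.31 on the log2 scale (limma, adjusted p = 0.0187). Bag3, a co-chaperone that binds Bcl-2, had 944 and 940 in the Pdk3 libraries and 1049 and 1004 in the mock libraries and fell by 0.12 on the log2 scale (limma, adjusted p = 0.0202, and 0.0498 floored at counting noise). Ywhab and Ywhae, which encode 14-3-3 proteins that hold phosphorylated Bad, rose by small amounts. Ywhab had 912 and 933 in the Pdk3 libraries and 830 and 810 in the mock libraries, and Ywhae 956 and 983 in the Pdk3 libraries and 892 and 865 in the mock libraries. Their log2 fold changes were 0.17 for Ywhab and 0.14 for Ywhae (limma, adjusted p = 0.00495 and 0.0119), and both calls ended under ribosomal protein scaling (limma, adjusted p = 0.0614 and 0.207). Huwe1 and Usp9x, a ligase and a deubiquitinase known to act on Mcl-1, had the highest counts of those that did not pass, with log2 fold changes of -0.01 each. Under ribosomal protein scaling both passed as lower (limma, adjusted p = 0.00139 for Huwe1 and 0.000902 for Usp9x). The median of the list was -0.0044, against -0.01 over all genes tested.

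On the list of caspases, the apoptosome and inhibitors of apoptosis, which also holds genes of death receptor signalling such as Fadd, 22 genes were tested. Of these 4 rose and 1 fell, and 2 and 1 with the floor at counting noise. These 5 of 22 are near the 22.9% called over all genes tested and are no result about the list. Their median log2 fold change was 0.05, against -0.01 over all genes tested. Apaf1, the scaffold of the apoptosome that cytochrome c activates, fell. It had 282 and 262 normalised counts in the Pdk3 libraries and 353 and 348 in the mock libraries, without overlap, and a log2 fold change of -0.37 ± 0.05 (SE, limma, adjusted p = 0.00276, and 0.00279 floored at counting noise).

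Among those that rose were Parp1, Fadd and Birc5, whose known roles differ. Parp1, a DNA break sensor that caspases cleave, had 1404 and 1393 normalised counts in the Pdk3 libraries and 1182 and 1226 in the mock libraries, a log2 fold change of 0.22 ± 0.02 (SE, limma, adjusted p = 0.00102). Fadd, the adaptor of death receptors, had 320 and 296 in the Pdk3 libraries and 258 and 257 in the mock libraries, a log2 fold change of 0.26 ± 0.06 (SE, limma, adjusted p = 0.0151, and 0.0261 floored at counting noise). Birc5, which encodes survivin, a protein of both mitosis and apoptosis control, had 88 and 97 in the Pdk3 libraries and 70 and 67 in the mock libraries. Its log2 fold change was 0.43 ± 0.11 (SE, limma, adjusted p = 0.0308), and the call ended with the floor at counting noise (adjusted p = 0.0578). Birc6, a large inhibitor of apoptosis, and Dffa, which holds the apoptotic DNase inactive, had the highest counts of those that did not pass, with log2 fold changes of 0.04 each.

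**Figure D3:**
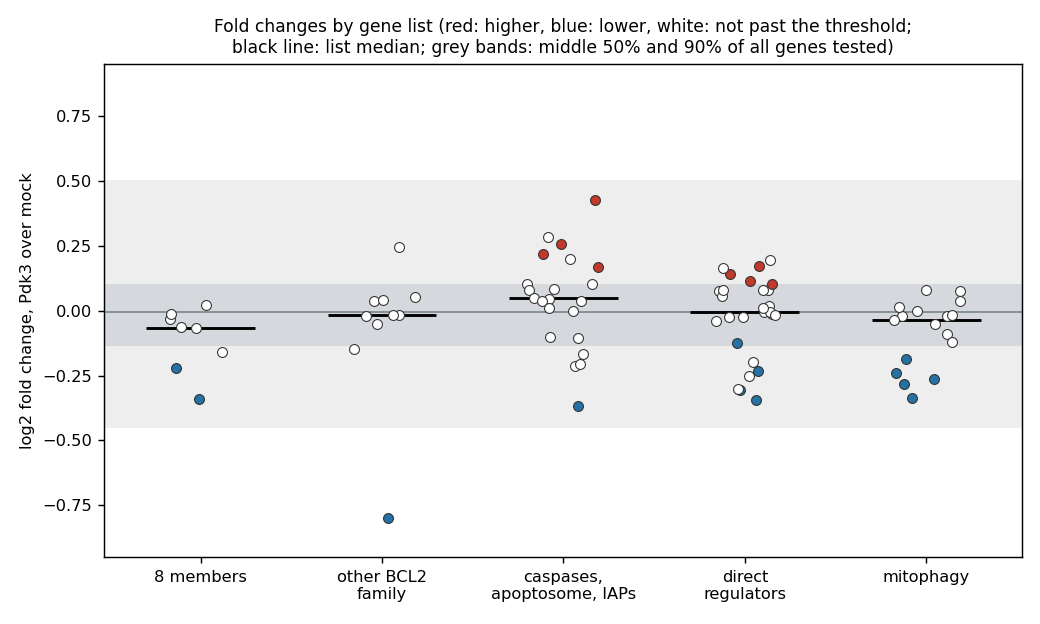
Log2 fold change of Pdk3 over mock (vertical axis) for the 8 members and for the tested genes of 4 related lists (10, 22, 27 and 17 genes from left to right), with red for genes that rose, blue for genes that fell and white for genes not past limma's threshold; black lines are list medians, and the grey bands span -0.13 to 0.10 and -0.45 to 0.50, the middle of all genes tested. Most points lie within the wider band, and the mitophagy list has blue points and no red ones.

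Of 17 tested mitophagy genes, 5 fell and 0 rose, and 4 fell with the floor at counting noise. Of all genes tested 11.3% were lower and 11.7% higher, and 7.45% were lower with the floor. Of this list 0 were higher also at the floor, and the median log2 fold change was -0.04, against -0.01 over all genes tested. Ulk1, the kinase that starts autophagy, had 789 and 740 normalised counts in the Pdk3 libraries and 958 and 971 in the mock libraries, a log2 fold change of -0.34 ± 0.04 (SE, limma, adjusted p = 0.000622). Pink1, the kinase that marks damaged mitochondria, had 724 and 753 in the Pdk3 libraries and 889 and 885 in the mock libraries, a log2 fold change of -0.26 ± 0.03 (SE, limma, adjusted p = 0.000929). For both kinases the groups were far apart compared with the difference within each pair. Beside this list too, 5 of 9 macrophage and leukocyte markers fell, and the part of these and of the other cell types in its values was not tested.

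Sqstm1, which encodes the cargo adaptor p62, had 805 and 788 normalised counts in the Pdk3 libraries and 902 and 909 in the mock libraries, a log2 fold change of -0.18 ± 0.03 (SE, limma, adjusted p = 0.00284). Gabarapl1 and Gabarapl2, members of the family of autophagosome proteins that Nix and Bnip3 bind, fell as well. Gabarapl1 had 428 and 401 in the Pdk3 libraries and 475 and 505 in the mock libraries, a log2 fold change of -0.24 (by limma, adjusted p = 0.0116, and 0.0129 floored at counting noise). Gabarapl2 had 133 and 144 in the Pdk3 libraries and 164 and 173 in the mock libraries, a log2 fold change of -0.28 (by limma, adjusted p = 0.0387), and its call ended with the floor at counting noise (adjusted p = 0.0934). The receptor genes Optn and Tax1bp1 had the highest counts of those that did not pass, with log2 fold changes of -0.02 for Optn and 0.02 for Tax1bp1. Under ribosomal protein scaling Optn passed as lower (limma, adjusted p = 0.0307).

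With any 1 library left out every gene lost its call, Pdk3 included, so that such a loss says nothing about a single gene. Of the genes named above from the family and its related lists, those that passed in the main analysis were followed further. Without an intensity trend all of them but Bmf and Foxo1 lost their call (limma, adjusted p between 0.0528 and 0.170), and Pdk3 kept its call. Without a filter on low values the genes that lost their call (limma, adjusted p between 0.0655 and 0.107) were Bnip3l, Foxo3, Ddit3, Bag3, Ywhae, Fadd, Birc5, Gabarapl1 and Gabarapl2. In each of these settings the genes kept the direction of their fold change. Bcl2l11 and Bmf thus passed in more settings than Bnip3l did.

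**Figure D4:**
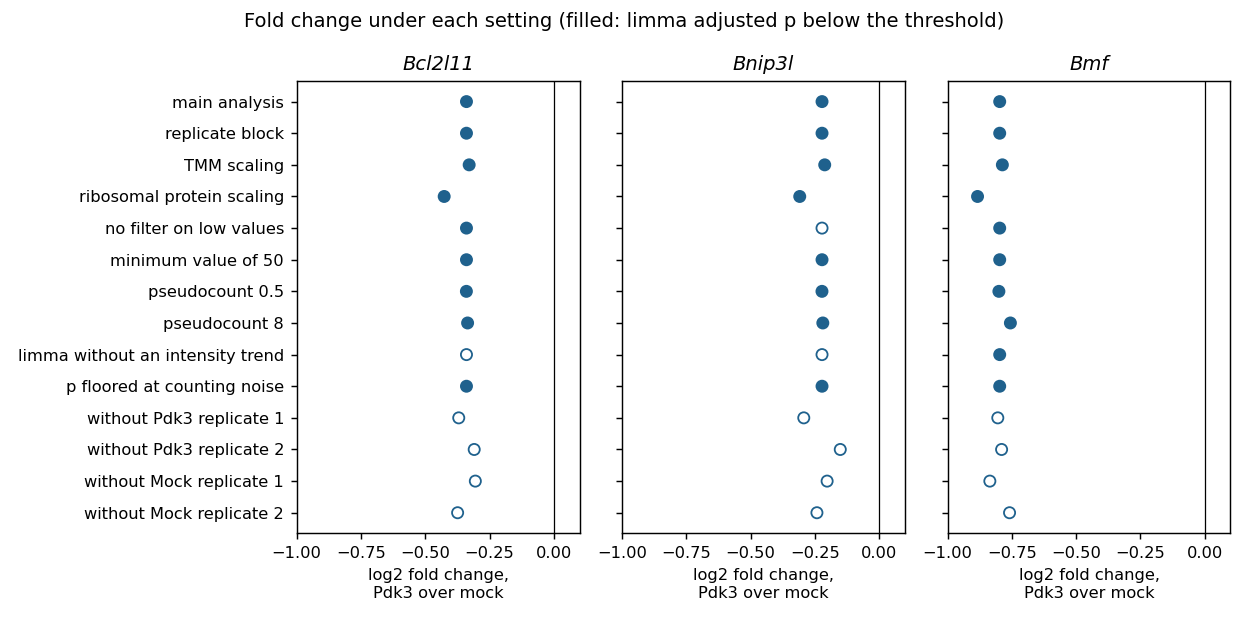
Log2 fold change of Pdk3 over mock (horizontal axes) for Bcl2l11, Bnip3l and Bmf under the main analysis and 13 alternatives (rows); filled points had a limma adjusted p below the threshold. All points lie below 0, and the 4 rows that leave out a library are open for each gene.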

How the data were processed

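The authors deposited 1 table of read counts per gene, normalised between libraries and rounded to whole numbers, which is treated here as a score and not as raw counts. Per the submitters' processing notes, the tools were STAR 2.6.1d, featureCounts 1.6.5 (Subread) and DESeq2 1.26.0, with FastQC and Trimmomatic 0.39, on build rn6. The sources used here give no settings for duplicates, strand or genes kept. Per the labels' protocols, 1 µg of total RNA went into stranded mRNA libraries.

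Values were tested as log2(value + 1) with limma 3.58.1 in R 4.3.3 (intensity trend, group as the only term, Benjamini-Hochberg over 12838 genes that reached 10 in 2 or more libraries). Fold changes on this scale understate changes of low genes. Scaling factors were estimated from skipped and doubled whole numbers (0.925 and 0.963 for Pdk3 1 and Pdk3 2, 1.03 and 1.06 for Mock 1 and Mock 2) and used for the counting intervals and the floor. Members, lists and alternatives were chosen with earlier results of these data known. From each related list the text names up to 6 genes past the threshold by smallest p and the 2 of highest mean that did not pass. One gene that this rule names is not reported here. Alternatives tried were TMM and ribosomal protein scaling, other filters (none, 50) and pseudocounts (0.5, 8), no trend, the floor, leaving out single libraries and blocking on replicate number.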

Additional observations from a re-analysis of the deposited data

How the results depend on the processing

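Of the 8 measured members, 2 were lower in the main analysis, against 4 under scaling to the median ribosomal protein gene, 1 without a filter on low values, 0 without an intensity trend and 0 with any 1 library left out, when the fit had fewer residual degrees of freedom and the lone library was taken to vary like the other group. At an unadjusted p under 0.05 limma gave 2 lower members without a trend and 1 to 2 with a library left out. Over all genes, 941 were higher and 3615 lower under ribosomal protein scaling, where the median of all genes was -0.09, against -0.01. The counts were 737 and 539 without a filter, 526 and 325 without a trend, and 0 and 0 with any library left out (1554 to 1645 higher and 1349 to 1727 lower at an unadjusted p under 0.05). With the floor at counting noise 957 genes were lower.

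Signs turned only for genes not past the threshold. Under ribosomal protein scaling Bak1 gave -0.065, Bok -0.048, Birc6 -0.051, Dffa -0.050 and Tax1bp1 -0.071, and TMM scaling gave 0.0043 for Huwe1. With single libraries left out the log2 fold change ranged from -0.17 to 0.10 for Bcl2, -0.029 to 0.073 for Bak1, -0.033 to 0.0065 for Bad, -0.16 to 0.024 for Bid, -0.073 to 0.035 for Bcl2l2, -0.045 to 0.020 for Usp9x, -0.020 to 0.051 for Tax1bp1 and -0.051 to 0.015 for Optn. The causes were not tested.

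No pairing by replicate number was seen: deviations of Pdk3 1 and Mock 1 from their group means correlated with r = 0.04 over 12838 genes. Since the libraries of a pair differed by less than counting noise, this check cannot decide whether equal numbers mark a shared culture or day. With the replicate block 2 members were lower and 0 higher. Each measured member, Pdk3 and each gene reported here under the naming rule stayed on its side of the threshold. Other genes named in the text were not followed under this setting.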
